A study of Mus musculus with 4 samples.

Results

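In the leukocytes of KPC tumours, 9 genes of the interleukin-1 (IL-1) system were followed: the ligands Il1a, Il1b and Il18, the receptor antagonist Il1rn, the receptors Il1r1 and Il1r2, the sensor Nlrp3 and the caspases Casp1 and Casp4. They were taken as a list of names with no threshold on a measured value, and all 9 of them were among the 33696 genes of the deposited matrices. The samples were 4 single-cell libraries of live CD45-positive cells, 1 library per group: Untreated, STING agonist, LTbR agonist, and STING and LTbR agonist (the combination). All groups were male C57BL/6 mice of 8 to 10 weeks that carried subcutaneous tumours of the KPC line, which comes from a pancreatic tumour of a mouse with Trp53 LSL.R172H/+ and Pdx1-Cre among its alleles, and 10 tumours were pooled per group at resection on day 14. The STING agonist was ADU-S100, injected once into the tumour at 2 µg, and the LTbR agonist was the antibody 4H8, given into the peritoneum 4 times at 100 µg per injection; the combination received both, and the untreated group received neither. ADU-S100 is a synthetic cyclic dinucleotide that activates STING, an innate immune sensor of such molecules, and 4H8 activates the lymphotoxin-β receptor.

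With 1 pooled library per group there was no replicate, so no test was possible and no p value is given. Levels are unique molecular identifiers (UMIs, 1 per captured RNA molecule) of a gene summed over the cells of a class and scaled to 1000000 UMIs (CPM), with an exact Poisson 95% interval. Comparisons are log2 ratios of 2 libraries with an exact binomial 95% interval. These intervals cover counting error only, not the spread between mice or libraries. A gene was called higher or lower where it differed at least 2-fold and its interval excluded 0, among genes with at least 200 UMIs over both libraries, and the share of all such genes called is given beside each count of members. The libraries held 52109958 to 85855398 UMIs in 8730 to 16322 deposited cells, the median UMIs per kept cell ran from 2200 (combination) to 4616 (untreated), and at most 83 cell barcodes (0.539% of the smaller library) were shared between any pair of libraries. Of the kept leukocytes, neutrophils made up 6.94% in the untreated, 40.6% in the STING agonist, 7.94% in the LTbR agonist and 9.33% in the combination library. Macrophages and monocytes made up 54.3%, 44.0%, 56% and 58.7% in the same order. Each class is a group of clusters like that cell type in its markers and is called by the short name, and cells were clustered without the 9 genes.

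IL-1α and IL-1β are inflammatory cytokines that signal through the same receptor, IL-1R1, and the receptor antagonist encoded by Il1rn occupies that receptor without signalling. IL-1R2 is a decoy that binds IL-1 and does not signal. IL-1β and IL-18 are made as inactive precursors that caspase-1 cleaves once it is recruited to an inflammasome, such as the one nucleated by NLRP3, and caspase-4 (also known as caspase-11 in the mouse) responds to cytosolic lipopolysaccharide; messenger RNA levels therefore do not measure the cytokine that is released. Il1b and Nlrp3 are classical NF-κB targets in myeloid cells, and neutrophils and monocytes are known as major sources of IL-1β in tumours.

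In GRCm38, several members are neighbours. Il1a (chr2:129299610-129309972) and Il1b (chr2:129364570-129371139) lie on the minus strand 54.6 kb apart with 2 annotated genes between them. Il1rn lies elsewhere on the same chromosome (chr2:24336853-24351494, plus strand). Il1r2 (chr1:40074079-40125231) and Il1r1 (chr1:40225080-40317257) are 99.8 kb apart with no gene between, and Casp1 (chr9:5298517-5307265) and Casp4 (chr9:5308828-5336783) are 1.56 kb apart, all on the plus strand. Il18 (chr9:50554827-50581840) and Nlrp3 (chr11:59541568-59566956) stand alone among the members. The promoter windows of Il1a and Il1b are shown because these ligand genes lie on 1 strand of 1 chromosome and were both called in the STING agonist library over all leukocytes. Both are RefSeq windows on GRCm38.p6, minus strand, from 250 bases before to 50 after the annotated start, and the capitals mark the letters TATAAA, searched on both strands.
Il1a, chr2:129309923-129310222: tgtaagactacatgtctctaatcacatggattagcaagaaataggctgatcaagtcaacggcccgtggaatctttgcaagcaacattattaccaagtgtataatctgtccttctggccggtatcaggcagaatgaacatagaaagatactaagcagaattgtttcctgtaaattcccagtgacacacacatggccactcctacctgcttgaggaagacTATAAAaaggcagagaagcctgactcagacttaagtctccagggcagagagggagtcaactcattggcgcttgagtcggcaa
Il1b, chr2:129371090-129371389: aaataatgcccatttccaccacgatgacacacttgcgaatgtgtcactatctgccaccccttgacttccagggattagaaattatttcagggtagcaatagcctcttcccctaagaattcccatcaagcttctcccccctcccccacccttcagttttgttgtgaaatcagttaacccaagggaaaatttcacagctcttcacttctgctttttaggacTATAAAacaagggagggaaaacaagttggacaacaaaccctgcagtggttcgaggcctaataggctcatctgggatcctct
The match starts at position -32 from the start in Il1a and at -31 in Il1b. It was present in 4 of the 14 windows found for the 9 members and in 13.6% of all 32851 windows of this length, and it is a match of letters only.

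Neutrophils and macrophages carried most of the transcripts of both ligands. Il1b was at 23281, 23515, 20865 and 24296 CPM in neutrophils of the untreated, STING agonist, LTbR agonist and combination libraries, an order kept for every set of 4 values below. In macrophages and monocytes it was at 2943, 7275, 5078 and 5023 CPM. Dendritic cells, at 2223, 4796, 3277 and 3338 CPM, overlapped the macrophage range over the libraries, whereas every neutrophil value was above every macrophage value. After each cell was thinned to 500 UMIs, 93.3%, 91.6%, 94.6% and 97.0% of neutrophils had an Il1b UMI, against 53.3%, 77.3%, 68.7% and 70.7% of macrophages and monocytes. In cells that should lack the transcript, the share was 8.77%, 17.3%, 9.09% and 15.5% for B cells and 2.43%, 11%, 4.24% and 8.03% for NK cells. Without thinning, it was 95.9%, 96.4%, 96.5% and 98.0% of neutrophils and 80.9%, 93.4%, 85.5% and 87.2% of macrophages and monocytes. Median depths before thinning were 1055 to 2129 UMIs in neutrophils, 2796 to 6989 in macrophages and monocytes, 2536 to 9742 in B cells and 1444 to 3212 in NK cells.

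**Figure D1:**
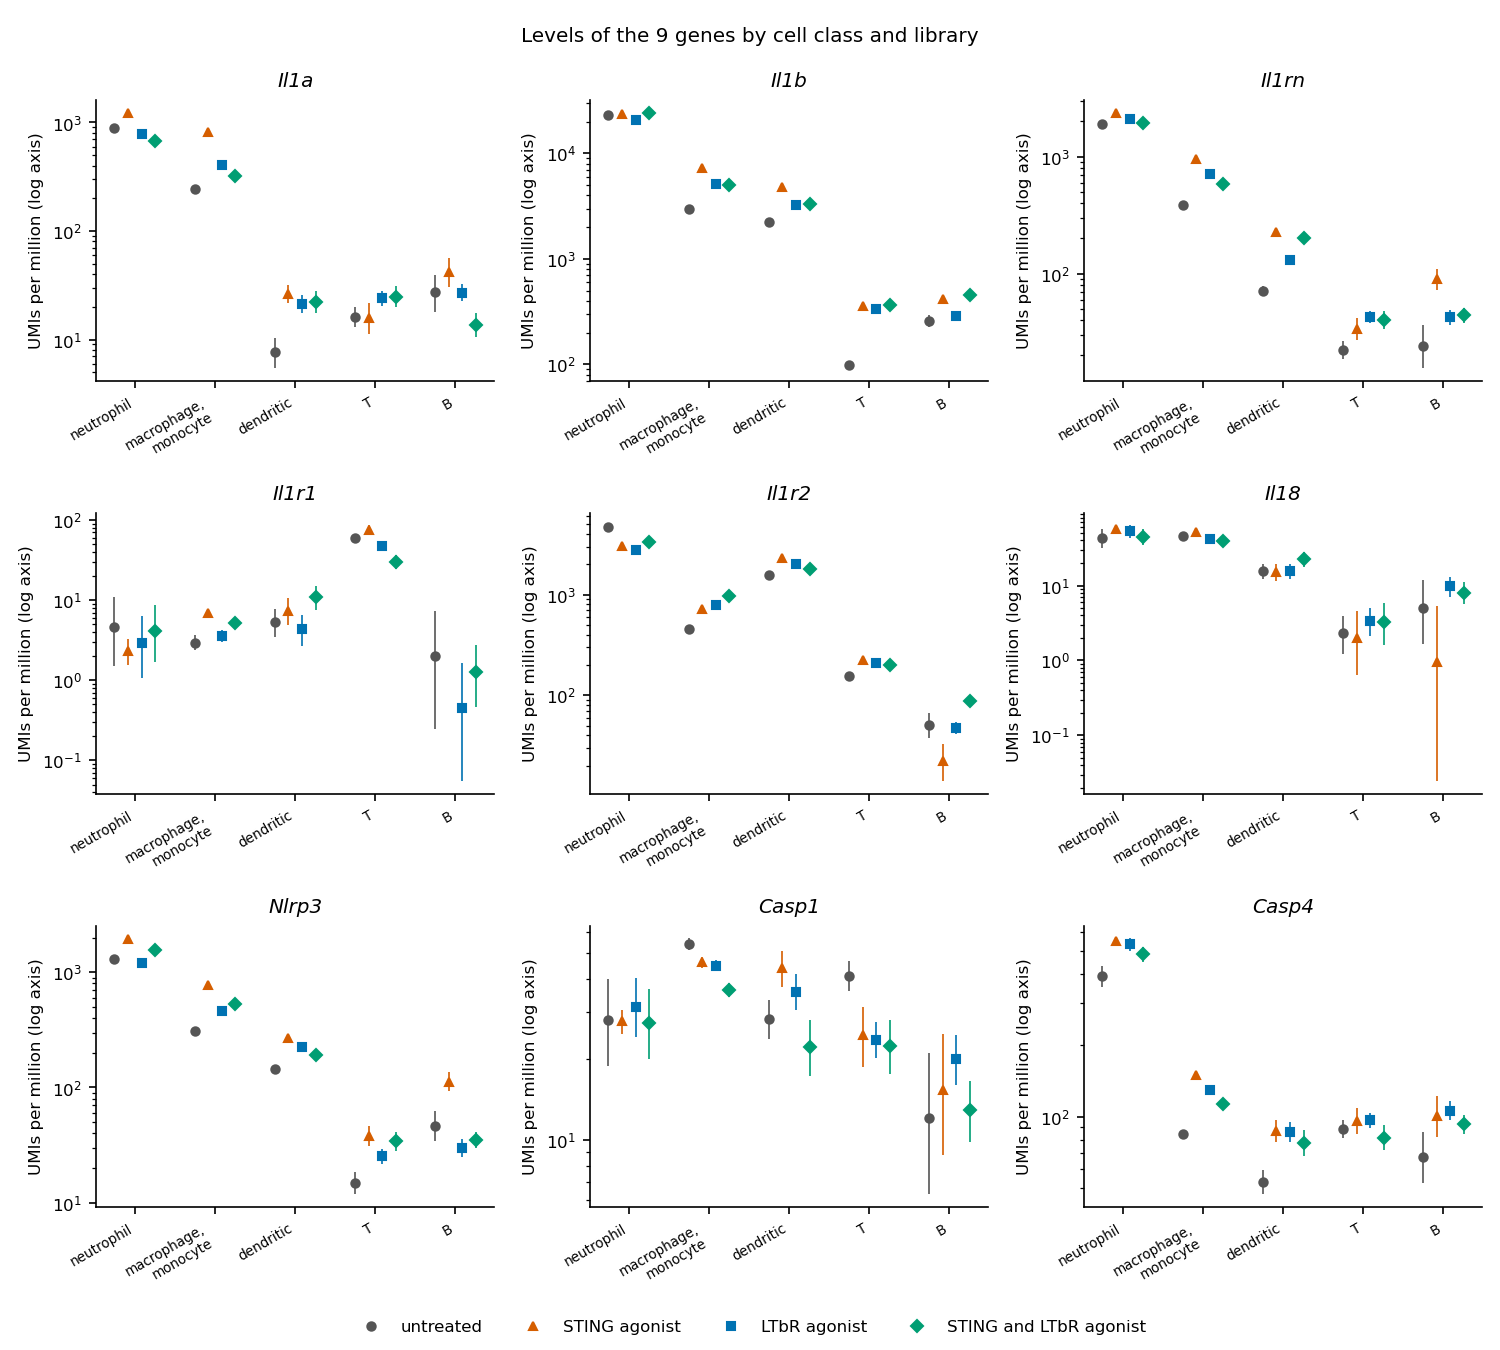
Level of each of the 9 genes in 5 cell classes of the 4 libraries, in CPM on a log axis, with exact Poisson 95% intervals as bars; 1 point is 1 library, and a level of 0 is not drawn. Il1a, Il1b, Il1rn, Nlrp3 and Casp4 are highest in neutrophils in every library, whereas Il1r1 is highest in T cells, at 30.2 to 74.5 CPM.

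Il1a was also highest in neutrophils, at 882, 1221, 788 and 679 CPM, but its range there overlapped that of macrophages and monocytes (243, 809, 408 and 323 CPM). In dendritic cells it was at 7.62 to 26.4 CPM, so dendritic cells had Il1b with little Il1a: 0.343 to 0.666 Il1a UMIs per 100 Il1b UMIs, against 6.43 to 11.1 in macrophages and monocytes and 2.79 to 5.19 in neutrophils. Capture can differ between genes, so such ratios are compared between classes and libraries only. Il1rn was at 1899, 2369, 2103 and 1942 CPM in neutrophils, at 386, 949.7, 715 and 586 CPM in macrophages and monocytes, and at 71.5, 226, 132 and 201 CPM in dendritic cells, with no overlap of the 3 ranges. Nlrp3 followed the same order, at 1194 to 1949 CPM in neutrophils, 309 to 776 in macrophages and monocytes, and 146 to 267 in dendritic cells.

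The decoy receptor gene Il1r2 was placed differently. It was highest in neutrophils (4751, 3016, 2779 and 3360.5 CPM), then in dendritic cells (1555, 2299, 2029.6 and 1785 CPM) and then in macrophages and monocytes (452, 720.1, 796 and 970.4 CPM), again with no overlap between the 3 ranges. The signalling receptor gene Il1r1 was scarce in leukocytes: T cells had 60.4, 74.5, 47.3 and 30.2 CPM, and no other leukocyte class among the 6 compared was above the 11 CPM of dendritic cells in the combination. In neutrophils Il1r1 rested on 5, 29, 6 and 7 UMIs in all, too few for any comparison. Casp4 was highest in neutrophils (389.9, 549, 532 and 482 CPM), and its level in macrophages and monocytes (84.4 to 150.4 CPM) overlapped that in B cells. Casp1 and Il18 were low everywhere, with Casp1 between 12.1 and 53.8 CPM and Il18 at no more than 56.6 CPM; both were detected in macrophages and monocytes (Casp1 at 36.3 to 53.8 and Il18 at 39.6 to 51.7 CPM), and their ranges there overlapped those of at least 1 other class.

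Over all leukocytes together, the STING agonist library had more of 5 members than the untreated library. Il1a was at 187 CPM in the untreated and 777 CPM in the STING agonist library (log2 ratio 2.05, interval 2.02 to 2.09), Il1b at 2815 and 9657 CPM (1.78, 1.77 to 1.79), and Il1rn at 317 and 1104 CPM (1.80, 1.77 to 1.83). Nlrp3 was at 258 and 909.8 CPM (1.82, 1.79 to 1.85) and Casp4 at 88.8 and 217 CPM (1.29, 1.24 to 1.34). The count of called members was thus 5 higher and 0 lower of 9, where 12.8% of all 11801 genes tested were called in either direction. In the LTbR agonist library none of the 9 was called (background 2.48%), nor in the combination against untreated (3.57%). Il1b was at 4327 and 4630.3 CPM in these libraries, above the untreated and below the STING agonist library. The median log2 ratio of all genes against untreated was -0.38 for the STING agonist, where the cell mix differed most, and scaling by TMM factors brought it to -0.02.

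Because neutrophils were so abundant after the STING agonist, the overall ratios mix cell numbers with levels. Neutrophils supplied 2.46% of the leukocyte UMIs in the untreated library and 19.0% in the STING agonist library, and their part of all Il1b UMIs was 20.4%, 46.3%, 16.2% and 19.7%. Each library was recomputed with the class mix, or the levels within classes, of the untreated library (a calculation chosen after the data were seen). The mix was taken as the share of UMIs in each class. Fewer cells of a class and less RNA per cell therefore cannot be told apart in these folds. The measured Il1b fold of 3.43 became 2.15 with the untreated mix and 2.32 with the untreated levels, so the mix alone and the levels alone gave similar folds. For Il1a the folds were 4.15 as measured, 3.08 with the untreated mix and 1.77 with the untreated levels, and for Nlrp3 they were 3.52, 2.35 and 1.80. Il1rn kept a fold of 2.29 with the untreated mix, whereas Casp4 went from 2.45 to 1.60, under 2-fold. Il1r2 had a fold of 1.93 that became 1.37 with the untreated mix and 2.10 with the untreated levels.

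**Figure D2:**
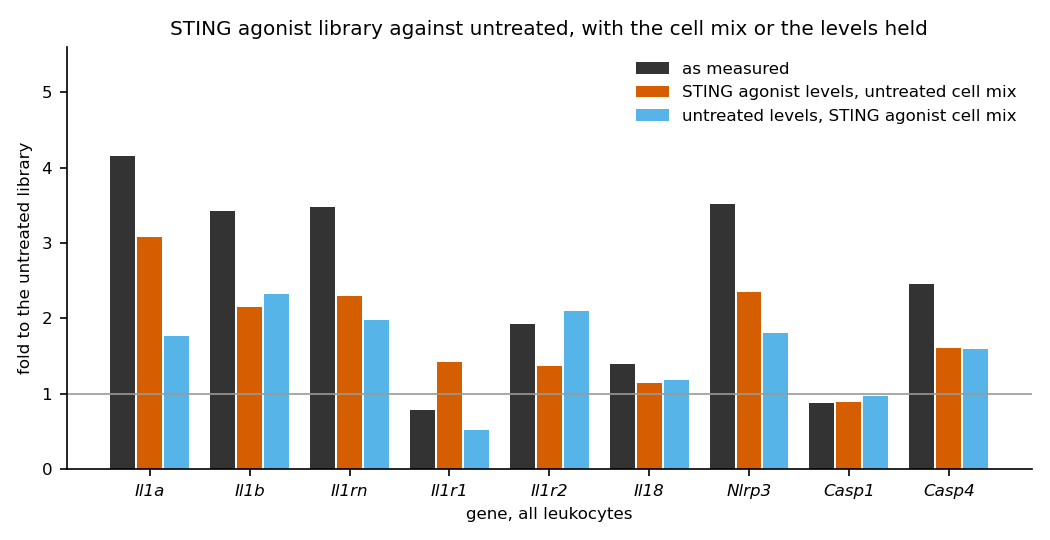
Fold of the STING agonist library to the untreated library over all leukocytes for each gene, as measured, with the class mix held at that of the untreated library, and with the levels within classes held at those of the untreated library; the line marks a fold of 1, and no error is drawn. For Il1b the 3 bars stand at 3.43, 2.15 and 2.32, and for Il1a at 4.15, 3.08 and 1.77.

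Over the whole neutrophil class no member was called in any of the 5 comparisons. Against untreated, 8 members could be compared for the STING agonist (background 8.50%) and 6 each for the LTbR agonist (1.77%) and the combination (1.06%), and for the combination against the STING agonist and the LTbR agonist the background was 4.90% and 0.747%. Il1b differed little, with log2 ratios of 0.01 (-0.00 to 0.03), -0.16 (-0.18 to -0.14) and 0.06 (0.04 to 0.08) to the untreated library. Nlrp3 was 0.58 (0.50 to 0.66) higher and Il1a 0.47 (0.37 to 0.56) higher in the STING agonist library. Il1r2 was lower than untreated in every agonist library, by log2 ratios of -0.66 (-0.70 to -0.61), -0.77 (-0.83 to -0.72) and -0.50 (-0.55 to -0.44). With the subset mix held at that of the untreated library these became -0.43, -0.48 and -0.39, and for the STING agonist the Nlrp3 ratio became 0.51 and the Il1a ratio 0.33. A single unnamed cluster held 1.96%, 0.559%, 5.42% and 31.3% of the neutrophils, with a median of 889 UMIs in the combination library. The 18 macrophage markers in the neutrophil class summed to 3849, 1271, 3501 and 2902 CPM, lowest in the STING agonist library, and its own 12 markers to 52618, 68523, 74713 and 64710.4 CPM, lowest in the untreated library. Their part in the neutrophil ratios was not tested.

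Neutrophils were divided in the use of these genes. The activated subset (93, 2079, 249 and 224 cells) was named by a list of 10 markers that includes Ccl3 and Ccl4. Its clusters had 3, 4 and 4 of these markers, and Ccl3 and Ccl4 were leading genes of only 1 of them. In this subset Il1a was at 2121, 1533, 1355 and 1402 CPM, and Il1rn at 4094, 3207, 3783 and 3421 CPM. In the mature subset marked by Retnlg, Mmp8 and Cxcr2 (68, 520, 215 and 203 cells, the remaining neutrophils lying in clusters that stayed unnamed or held mixed markers), Il1a was at 279, 406, 302 and 217 CPM and Il1rn at 1088, 1494, 1134 and 1213 CPM. Il1b and Il1r2 had the reverse order, with Il1b at 26440.0 to 29937 CPM in mature and 16419.6 to 18765 CPM in activated neutrophils, and Il1r2 at 3021 to 5998 against 1691 to 2029.5 CPM. Neither pair of ranges overlapped, nor did those of Il1a and Il1rn. The activated subset was 18.2%, 38.7%, 24.1% and 16.7% of neutrophils, and Il1a within it was lower in all 3 agonist libraries than in the untreated library, so the higher Il1a of all neutrophils after the STING agonist was not seen within this subset. Single calls were made inside it against untreated. Il18 was 1 of 7 members compared for the STING agonist (background 7.46%), at a log2 ratio of 2.01 (0.46 to 5.38) that rests on 284 UMIs against 2. Casp4 was 1 of 6 for the LTbR agonist (2.25%), at 1.04 (0.64 to 1.48) on 287 UMIs against 59. Members were also called in neutrophil clusters that stayed unnamed or held mixed markers. Il1r2 was called lower for the LTbR agonist in 3 unnamed clusters, at -1.05 (-1.20 to -0.90), -1.14 (-1.43 to -0.86) and -1.23 (-1.54 to -0.90), where 6.46%, 17.8% and 25.6% of the few genes with enough UMIs were called. For the STING agonist the calls against untreated in such clusters were all higher. They were Il1b at 2.17 (1.66 to 2.79) and Il1rn at 1.70 (0.60 to 3.47) in 1 unnamed cluster (2 of 3 members compared, background 20.6%), and Nlrp3 at 1.92 (1.28 to 2.72) and Il1rn at 1.71 (1.10 to 2.47) in another (2 of 4, 9.50%). Il1a at 2.24 (1.38 to 3.46) was the 1 of 6 in one more (12.6%), and Il1rn at 1.08 (0.76 to 1.43) the 1 of 6 in the mixed clusters (7.12%). The untreated library had 5 to 84 UMIs of these genes there. In the cluster with 2 of 3 called, Il1b was also called higher for the LTbR agonist at 2.25 (1.73 to 2.88), the 1 member compared (23.1%), and Il1r2 higher in the combination than in the STING agonist library at 1.85 (1.24 to 2.38; 1 of 3, 18.7%). Il1a was called higher for the combination against untreated in a different cluster at 2.52 (0.61 to 8.41) on 205 UMIs against 1 (1 of 5, 18.0%), and lower than in the STING agonist library in yet another at -1.15 (-2.08 to -0.45) on 14 UMIs against 935 (1 of 6, 5.97%). Il1r2 of mature neutrophils was at 5998 CPM in the untreated library and at 3899, 3021 and 3945 CPM in the others.

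Macrophages and monocytes had the most called members of the classes for the STING agonist. The STING agonist library had 5 of 9 members higher and 0 lower, where 4.78% of 10443 genes were called. Il1a had the largest log2 ratio, 1.74 (1.70 to 1.77), followed by Nlrp3 at 1.33 (1.29 to 1.36), Il1b at 1.31 (1.29 to 1.32), Il1rn at 1.30 (1.27 to 1.33) and Il1r1 at 1.22 (0.87 to 1.59), the last on 305 UMIs in the STING agonist and 85 in the untreated library. The share of cells with an Il1a UMI after thinning was 8.56%, 22.0%, 12.9% and 10.4%, so the STING agonist library stood above the other 3. Casp4, at 84.4, 150.4, 129 and 113 CPM, had a log2 ratio of 0.83 (0.77 to 0.90), which TMM scaling moved to 1.03. Il18 differed little (0.19, 0.10 to 0.29), and Casp1, at 53.8, 46.0, 44.8 and 36.3 CPM, was highest in the untreated library. The median member had a log2 ratio of 1.22 against -0.20 for all genes.

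The 12 neutrophil markers summed to 387, 1309.7, 604 and 595 CPM in the macrophage and monocyte class, against 52618 to 74713 CPM in neutrophils, so neutrophil RNA moved with the STING agonist group here too. With neutrophil free RNA subtracted, the Il1b ratio to untreated was 1.28 and that of Il1a 1.73, and with the clusters of mixed markers left out they were 1.29 and 1.70. With the subset mix held at that of the untreated library, 3 of the 5 called members fell under 2-fold, Il1b from a fold of 2.47 to 1.89, Il1rn from 2.46 to 1.95 and Il1r1 from 2.33 to 1.96, while Il1a (3.33 to 2.07) and Nlrp3 (2.51 to 2.03) did not.

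**Figure D3:**
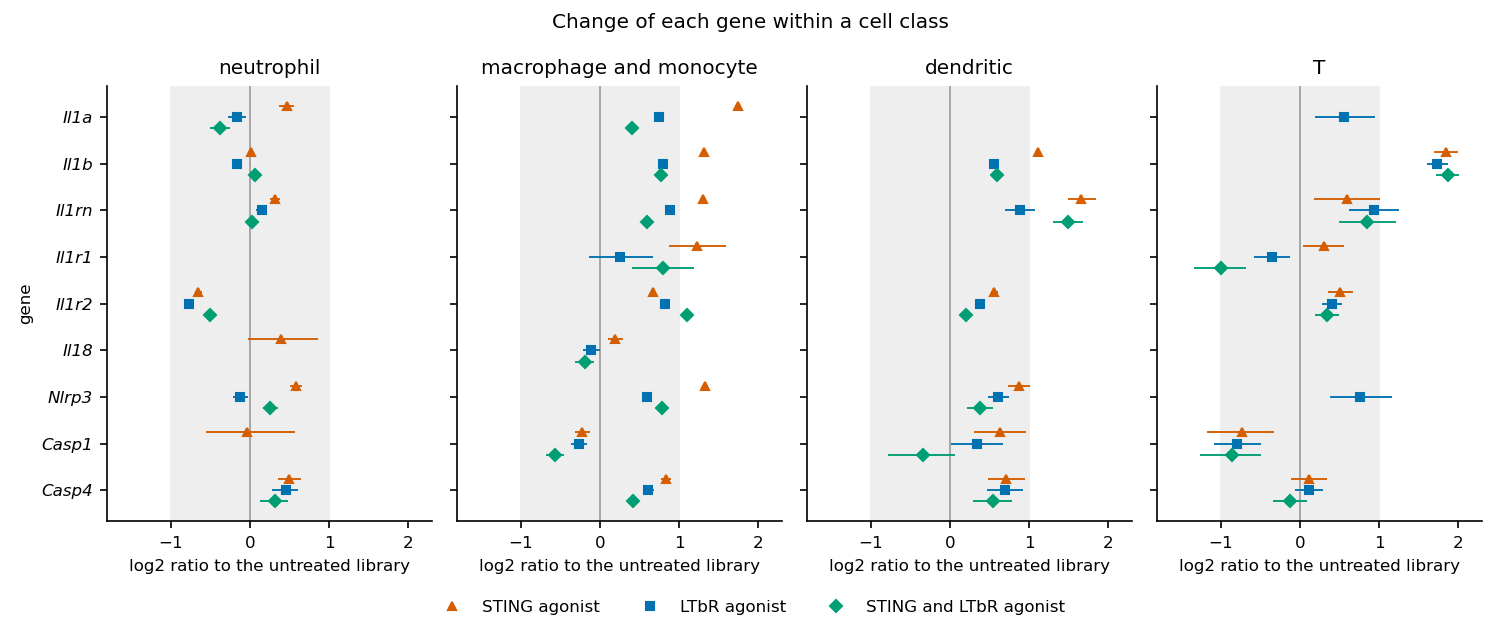
Log2 ratio of each gene to the untreated library in 4 cell classes, with exact binomial 95% intervals as bars that cover counting error only; genes with under 200 UMIs over both libraries are not drawn, and the grey band holds differences under 2-fold. In macrophages and monocytes, Il1a, Il1b, Il1rn, Il1r1 and Nlrp3 of the STING agonist library lie to the right of the band, whereas every neutrophil value lies inside it.

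For the LTbR agonist no macrophage member was called (background 1.45%). At a fold limit of 1.5 in place of 2, 6 of the 9 were higher than untreated, where 6.26% of all genes were called. These were Il1rn at 0.89 (0.86 to 0.92), Il1r2 at 0.82 (0.79 to 0.85) and Il1b at 0.79 (0.78 to 0.80). The others were Il1a at 0.75 (0.71 to 0.79), Casp4 at 0.61 (0.54 to 0.68) and Nlrp3 at 0.59 (0.55 to 0.62). With the subset mix of the untreated library, 4 of these 6 fell under 1.5-fold, Nlrp3 to a fold of 1.47, Il1b to 1.46, Casp4 to 1.44 and Il1r2 to 1.41, while Il1rn (1.70) and Il1a (1.63) did not. In the combination 1 member was called against untreated (background 1.75%), the decoy receptor gene Il1r2 at 1.10 (1.07 to 1.13). Of the 9 members, Il1r2 alone was highest in the combination in this class. It was not past 2-fold when cells were thinned to 1000 UMIs (0.97) or clustered at resolution 0.5 (0.69), and its fold of 2.15 became 1.74 with the subset mix of the untreated library.

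The combination was below the STING agonist in most of these values. Over all leukocytes 4 members were lower and 0 higher (background 7.52%): Il1a by a log2 ratio of -1.66 (-1.69 to -1.63), Il1rn by -1.17 (-1.19 to -1.14), Il1b by -1.06 (-1.07 to -1.05) and Nlrp3 by -1.06 (-1.08 to -1.04). The calls of Il1b and Nlrp3 were lost when all deposited cells were kept (-0.98 and -1.0) and when mitochondrial, ribosomal, haemoglobin and immunoglobulin genes were left out of the total (-0.98 for both). Within macrophages and monocytes only Il1a was called lower, at -1.32 (-1.36 to -1.29), where the background was 2.86%, and the ratios of the other 3 stood at -0.70 for Il1rn, -0.54 for Nlrp3 and -0.53 for Il1b. Against the LTbR agonist library no member was called over all leukocytes (background 1.58%) or in macrophages and monocytes (0.470%). These comparisons share libraries and are not independent of each other.

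Macrophage subsets differed in the ligands they carried. The C1q high subset, marked by complement genes, had the lowest Il1b of the named subsets in every library, at 831, 1306, 1045 and 1664 CPM. In Chil3 and Vcan monocytes Il1b was at 3187, 7814, 5014 and 4752 CPM, and in the MHC class II high subset it was at 3955, 7221, 5806 and 5682 CPM. Every value of these 2 subsets was above every C1q high value, and their own ranges overlapped. Il1r2 followed a different order, at 1202, 1665, 1536 and 1881 CPM in the MHC class II high subset and 264, 473, 257 and 429 CPM in the monocytes.

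Within the named subsets, the largest STING agonist ratio was that of Il1a in Chil3 and Vcan monocytes. Il1a there was at 22.6, 113, 43.2 and 39.9 CPM, with a log2 ratio of 2.32 (2.01 to 2.65) to untreated, and Nlrp3 at 163, 452, 284 and 331 CPM. In that subset 4 of 8 members compared were called higher (background 1.77%). In the Mmp12 and Gpnmb subset, whose leading genes include the heat shock gene Hspa1b, 4 of 7 were called (2.43%), with Il1a at 376, 1057, 547 and 473 CPM and Il1b at 1691, 4337, 2444 and 3100.2 CPM. For the STING agonist none was called in the MHC class II high subset (0 of 7, background 1.62%), C1q high (0 of 4, 3.42%) or cycling subset (0 of 6, 0.653%). Il1a in the C1q high subset went the other way, at 92.7, 31.9, 54.4 and 78.1 CPM, but with 33 to 184 UMIs it was under the UMI minimum for the STING agonist comparison. For the combination against untreated, 3 of 6 members were called higher in the C1q high subset (background 0.717%), Il1r2 at 1.31 (0.90 to 1.72), Casp4 at 1.22 (0.94 to 1.49) and Il1b at 1.00 (0.89 to 1.11). In the cycling subset Il1r2 was the 1 of 6 called (1.58%), at 1.71 (1.56 to 1.87). In Chil3 and Vcan monocytes 2 of 8 were called (0.751%), Il1rn at 1.11 (0.99 to 1.23) and Nlrp3 at 1.02 (0.89 to 1.15). Macrophage clusters that stayed unnamed or held mixed markers also had called members against untreated, all higher, in each agonist library. These calls are not listed, because the share of all genes called there is not given. For the STING agonist none was called in the unnamed cluster that held 23.9% of the class in the untreated library.

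The subset marked by interferon-response genes such as Cxcl10 and Rsad2 (212, 121, 377 and 220 cells) was the only named subset in which all agonist libraries had called members against untreated. The counts were 5 of 8 for the STING agonist (background 2.49%), 4 of 8 for the LTbR agonist (4.78%) and 4 of 8 for the combination (2.25%), all higher. Il1b was at 2807, 7415, 6914 and 6094 CPM there, Il1rn at 417, 1187, 1409 and 1008 CPM, Il1a at 129.6, 489.8, 491 and 381 CPM, and Nlrp3 at 163, 570.0, 419 and 372 CPM. The untreated value was the lowest of the 4 for each of these genes. In cycling macrophages Il1r2 alone stood apart, at 252, 302, 285 and 827 CPM.

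**Figure D4:**
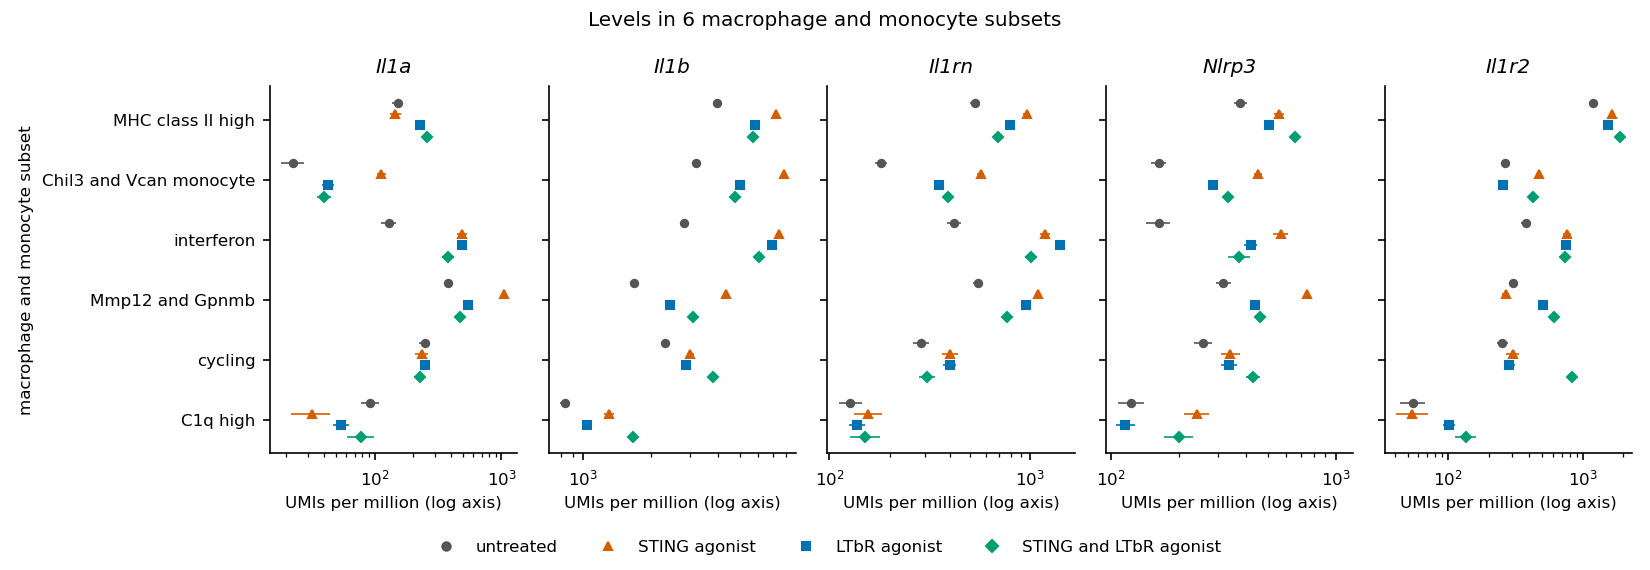
Levels of 5 genes in 6 named macrophage and monocyte subsets, in CPM on a log axis that differs between panels, with exact Poisson 95% intervals as bars; 1 point is 1 library. In the interferon subset the untreated library is lowest for every gene drawn, and Il1b runs from 831 CPM in the C1q high subset to 7814 CPM in the Chil3 and Vcan monocytes.

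In dendritic cells Il1b and Il1rn were called higher in the STING agonist library. Il1rn was at 71.5, 226, 132 and 201 CPM, a log2 ratio of 1.66 (1.49 to 1.84) for the STING agonist and 1.49 (1.30 to 1.68) for the combination. Il1b had 1.11 (1.08 to 1.14) for the STING agonist and 0.59 (0.55 to 0.62) for the combination. That made 2 of 6 members called for the STING agonist (background 1.84%), 0 of 6 for the LTbR agonist (0.832%) and 1 of 6 for the combination (1.84%), with none for the combination against the STING agonist (2.03%) or the LTbR agonist (0.643%). The neutrophil markers summed to 55.7, 839, 188 and 158 CPM in dendritic cells, and with neutrophil free RNA subtracted the STING agonist ratios were 1.06 for Il1b and 1.54 for Il1rn. The 18 macrophage markers summed to 1141, 1286, 1596 and 2494 CPM, and clusters of mixed markers were 4.88%, 10.2%, 10.6% and 16.4% of the class. Without these clusters Il1b was at 0.97 for the STING agonist and Il1rn at 1.0 for the combination, and neither was called. With the subset mix of the untreated library the Il1b fold of the STING agonist went from 2.16 to 1.73 and the Il1rn fold of the combination from 2.81 to 1.91, both under 2-fold, while Il1rn for the STING agonist went from 3.17 to 2.26.

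Among the type 1, type 2 and mature dendritic cells, type 2 cells held the most Il1b (4208, 7007, 5047 and 4542 CPM). They also held the most Il1r2 (3180.1, 3785, 3364 and 2428 CPM), while type 1 cells, marked by Xcr1 and Clec9a, had Il1r2 at 86.4 to 432 CPM. Casp1 was likewise above type 1 in type 2 cells, at 38.5 to 70.5 against 3.65 to 21.3 CPM. Type 2 cells were named by a list of 8 markers that includes Cd209a and Clec10a. Their clusters had 3, 3 and 6 of these markers, and Cd209a was a leading gene only in the last. Members were also called inside dendritic subsets, both higher and lower. These calls are not listed, because the share of all genes called there is not given.

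T cells carried little Il1b but the most Il1r1. Il1b was at 99.8, 359, 332 and 364 CPM, called higher in each agonist library against untreated at 1.85 (1.69 to 2.0), 1.73 (1.60 to 1.87) and 1.87 (1.72 to 2.01), where the background was 1.60%, 1.93% and 1.58%. The STING agonist and LTbR agonist calls did not hold under every treatment of cells and free RNA. The share of T cells with an Il1b UMI after thinning was 4.11%, 10.8%, 6.34% and 10.0%, below the share in B cells of the same library. It was above the share in NK cells in every library but that of the STING agonist. The 12 neutrophil markers in T cells summed to 26.0, 628, 93.6 and 111 CPM and the 18 macrophage markers to 1127, 1141, 1558 and 1666 CPM. With neutrophil free RNA subtracted, the STING agonist ratio was 0.68. In the LTbR agonist library 53.9% of the T cell Il1b UMIs came from 66 cells of a cluster led by Taco1 and Pde4c, and without that cluster the ratio was 0.75; it was also under 2-fold with doublets kept (0.93) and at resolution 0.5 (0.54). The combination stayed at 1.78 with neutrophil free RNA subtracted and 1.73 without that cluster, and the part of macrophage RNA in these values was not tested. In NK cells Il1b was at 38.6, 182, 110.1 and 218 CPM and was likewise the 1 of 2 members compared that was called higher in each agonist library against untreated, at 2.23 (1.82 to 2.68), 1.5 (1.09 to 1.95) and 2.49 (2.07 to 2.95), where the background was 0.531%, 0.434% and 0.832%. The neutrophil markers there summed to 11.7, 242, 22.9 and 49.3 CPM and the macrophage markers to 749 to 1034 CPM, and their part in these calls was not tested. In B cells Il1b was at 259, 418, 288 and 451 CPM, beside macrophage markers of 2702 to 3392 CPM. In the combination against the STING agonist library, with 75 B cells in the latter, 3 of 5 members compared were called (background 12.8%), Il1r2 higher at 1.97 (1.39 to 2.67) and Nlrp3 and Il1rn lower at -1.68 (-2.03 to -1.32) and -1.04 (-1.39 to -0.67), beside neutrophil markers of 635 CPM in the STING agonist and 244 CPM in the combination library.

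Il1r1 in T cells was confined largely to a pair of clusters. The cluster led by Scart1, Il17a and Il23r, genes of IL-17-producing T cells, had 208 of 5711 T cells and 467 of 954 Il1r1 UMIs (49.0%). A cluster led by Cd40lg, Tnfsf11 and Cd4 had 437 of them (45.8%) in 1147 cells. In the Scart1 cluster Il1r1 was at 1040.4, 971, 945 and 766 CPM on 221, 78, 119 and 49 UMIs, and the counting intervals of the 4 libraries overlapped. In the Cd40lg cluster it was at 152, 246, 140.3 and 91.1 CPM. The Scart1 cluster was 5.77%, 4.38%, 3.24% and 2.10% of T cells, lowest in the combination.

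**Figure D5:**
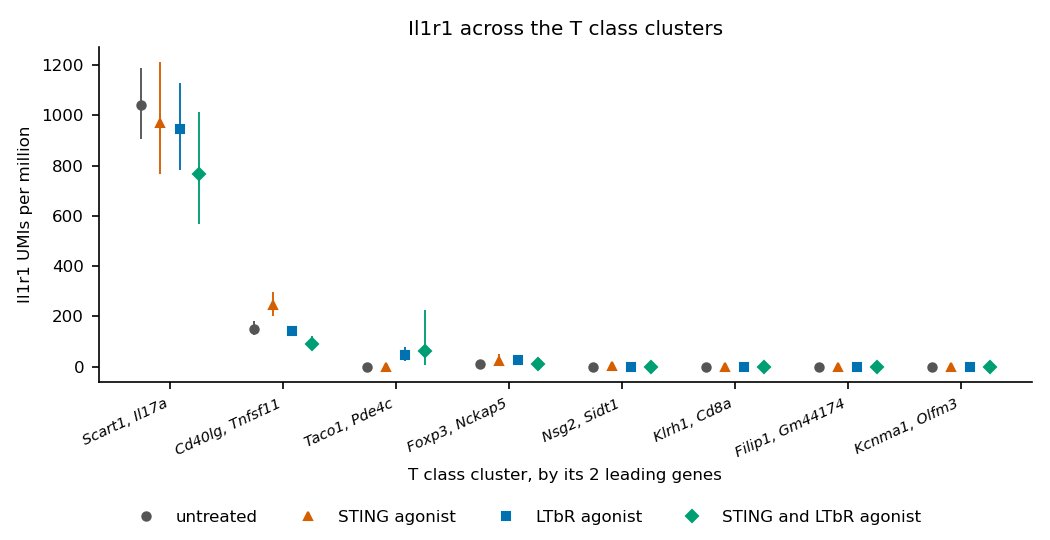
Il1r1 in the 8 clusters of the T class, in CPM, with exact Poisson 95% intervals as bars where there was a UMI; 1 point is 1 library, and clusters are named by their leading genes. The cluster led by Scart1 and Il17a stands at 766 to 1040.4 CPM in the 4 libraries, and the cluster led by Cd40lg at 91.1 to 246 CPM.

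For T cells as a whole, Il1r1 was called lower in the combination than in the STING agonist library at -1.30 (-1.67 to -0.95), the only member called there (background 1.63%), and none was called against the LTbR agonist (0.474%). Against untreated the ratio was -1.0 (-1.34 to -0.68), just short of a call. Il1r2 in T cells was at 157, 225, 208 and 199 CPM, with 40.9% of its UMIs in the Cd40lg cluster and 23.6% in the cluster led by Foxp3, a regulatory T cell gene. The Taco1 cluster held 9.50% of them in 84 of 5711 cells, and 16.5% in the LTbR agonist library. The Il1r2 ratios to untreated of 0.51, 0.40 and 0.34 became 0.59, 0.27 and 0.30 without that cluster. Casp1 in T cells was at 41.0 CPM in the untreated library and at 24.6, 23.7 and 22.5 CPM in the others, with log2 ratios of -0.73 (-1.17 to -0.33), -0.79 (-1.09 to -0.49) and -0.86 (-1.26 to -0.49), all under 2-fold.

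The balance of antagonist to ligand was followed as UMIs of Il1rn per Il1b. Il1rn UMIs per 100 Il1b UMIs were 13.1, 13.1, 14.1 and 11.7 in macrophages and monocytes and 8.16, 10.1, 10.1 and 8.0 in neutrophils. In macrophages and monocytes the ratio was the same in the untreated and STING agonist libraries to 3 digits, while both genes had log2 ratios near 1.3. In dendritic cells it was 3.22, 4.72, 4.04 and 6.02. Per 100 Il1b UMIs, the decoy gene Il1r2 gave 15.4, 9.90, 15.7 and 19.3 UMIs in macrophages and monocytes and 20.4, 12.8, 13.3 and 13.8 in neutrophils, so in both classes it was lowest in the STING agonist library.

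Of 38 further listed genes of the pathway, 32 could be compared over all leukocytes, and 7 were higher and 3 lower in the STING agonist than in the untreated library (background 12.8%). The largest differences were in Il36g, which encodes the ligand IL-36γ, at 15.2 and 159.8 CPM (3.40, 3.28 to 3.51), and Il1rap, the co-receptor of IL-1R1, at 59.0 and 294 CPM (2.32, 2.26 to 2.38). The sensor genes Nlrp12 (2.09, 1.82 to 2.37) and Mefv, which encodes pyrin (1.54, 1.47 to 1.62), followed. Neutrophils supplied 2.46% of the leukocyte UMIs in the untreated and 19.0% in the STING agonist library. Ratios of the listed genes over all leukocytes mix cell numbers with levels, and they were not recomputed with the class mix held. In macrophages and monocytes 3 of 28 were higher (background 4.78%), Il36g at 1.46 and 13.1 CPM, Il1rap at 37.5 and 90.7 CPM and Mefv at 49.8 and 109 CPM. In dendritic cells Il1rap (32.6 and 94.6 CPM) and Mefv (22.7 and 48.8 CPM) were the called genes of 19 (background 1.84%). In neutrophils 4 of 26 were called (background 8.50%). P2rx7, the ATP-gated channel that triggers NLRP3, was higher at 56.9 and 121 CPM, and Nlrp1b, Gsdme and the adaptor gene Pycard were lower, Pycard at 29.8 and 13.8 CPM. In the combination against the STING agonist 5 of 32 were lower over all leukocytes (background 7.52%), with Il36g at -2.35 (-2.43 to -2.27), Nlrp12 at -1.64 (-1.88 to -1.40) and Il1rap at -1.48 (-1.53 to -1.44). There 1 of 28 was also lower in macrophages and monocytes (2.86%), while 1 of 26 was higher in neutrophils (4.90%) and 1 of 7 in B cells (12.8%). Against untreated the combination had 1 of 32 higher over all leukocytes (3.57%) and 1 of 19 in dendritic cells (1.84%). Against the LTbR agonist it had 1 of 32 lower over all leukocytes (1.58%) and 1 of 19 in T cells (0.474%). None of the listed genes was called for the LTbR agonist against untreated in any of the 7 cell sets compared. Between 7 and 32 of them could be compared per set. The background ran from 0.434% in NK cells to 2.48% over all leukocytes, and that of B cells is not given.

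Across 6 classes in 4 libraries (24 points, which share depth and free RNA within a library), the genes whose pattern was most like that of Il1b among 13138 were Mefv, Mcemp1 and Ptafr (Pearson r 0.993, 0.985 and 0.983 of log2(CPM + 1)). For Il1a they were Morrbid, Cebpb and Gpat3 (0.971, 0.969 and 0.969), and for Il1rn Ier3, Tarm1 and Slc7a11 (0.993, 0.991 and 0.99). Nlrp3 was most like Slc7a11, Il1rn and Il1b (0.984, 0.980 and 0.978). Il1r1 was most like Igfbp7, Il1rl1 and Il23r (0.907, 0.890 and 0.889), and Il1r2 like Cd80, Cdkn1a and Samhd1 (0.952, 0.949 and 0.947). The matches were weakest for Casp1, with Abi1, Slc35e4 and Zmiz1 at 0.857, 0.853 and 0.843. Il18 was most like Pirb and Pilrb2 (0.958 and 0.956) and Casp4 like Mgam, Wfdc21 and Mirt2 (0.970, 0.969 and 0.968).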

How the data were processed

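Libraries were made by the study with the GEM-X Single Cell 5' v3 kit, per the labels, from sorted CD45-positive cells of 10 pooled tumours per group. The deposited matrices hold UMI counts per gene and cell. The submitters' processing notes name Cell Ranger 7.1.0 and mm10, and the file headers name 8.0.1. Here cells with 300 to 5000 genes and at most 6% mitochondrial UMIs were kept, and the highest Scrublet scores, 0.4% per 1000 cells, were removed as doublets because the automatic threshold marked at most 1 cell in a library. Cells were clustered (scanpy 1.11.5, leidenalg 0.10.2, resolution 1) without the 9 genes and the 38 listed pathway genes, and named by marker genes. The thresholds for naming were set after the data were seen. UMIs were summed per class and library, 0.5 UMI was added for ratios, and the ratio step was checked on simulated counts. TMM factors came from edgeR 4.0.16 and were used as an alternative only. Genes named were the 9 members, listed pathway genes when called (at most 4 per comparison), and the 3 genes most alike in pattern, and 1 macrophage subset, 1 gene alike in pattern and 1 allele of the tumour line are not reported here. The members and lists were chosen with earlier results of these data known. The first of the study's 2 experiments was not analysed here.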

Additional observations from a re-analysis of the deposited data

Results flagged for a closer look

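Opposite directions in cell classes were noted for 3 members, each at least 1.5-fold with an interval on its side of 0; with 1 library per group the difference between classes was not tested. Il1r2 had a log2 ratio of 0.67 in macrophages and monocytes and of -0.66 in neutrophils for the STING agonist against untreated, and of 0.82 and -0.77 for the LTbR agonist. With the subset mix held at that of the untreated library these were 0.29 and -0.43, and 0.50 and -0.48, all under 1.5-fold. Casp1 had 0.63 in dendritic cells, or 0.45 with the untreated subset mix, and -0.73 in T cells for the STING agonist. Il1r1 had 0.79 in macrophages and monocytes, or 0.65 with that mix, and -1.0 in T cells for the combination.

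Cells outside the named leukocyte classes also carried member transcripts above their untreated level. In the cells with epithelial, fibroblast or endothelial markers Il1b was at 84.7 CPM in the untreated and 749 CPM in the STING agonist library, where S100a8 went from 0 to 315 CPM. The part of neutrophil RNA in that Il1b level was not tested. In cells of clusters that stayed unnamed, whose median depth was 923 to 1418 UMIs, Il1b was at 1345 CPM in the untreated and 4089 CPM in the STING agonist library, Il1a at 138 and 470.1 CPM and Nlrp3 at 97.4 and 246 CPM. Il1r2 was at 49.6 CPM there in the untreated and 229 CPM in the combination library.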

How the results depend on the processing

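Each of the 14 alternatives covered 28 to 188 of the 188 single-gene ratios. None of the called ratios it covered turned direction, although up to 6 uncalled log2 ratios with a size of at least 0.1 changed sign. With doublets kept, 184 of 188 ratios kept their status as called or not called. With TMM factors 183 did, and with every cell named by its own score 171 of 175. A fold limit of 1.5 in place of 2 added 45 calls and thereby gave, over all leukocytes, 6 members for the STING agonist (5 at 2-fold; 37.0% of all genes), 3 for the LTbR agonist (7.34%) and 5 for the combination against untreated (10.2%), of which Il1r1 and Casp1 were lower; in neutrophils 1 member for the STING agonist (33.1%), 1 for the LTbR agonist (8.36%) and 1 for the combination against the STING agonist (21.4%); in macrophages and monocytes 7 for the STING agonist (5 at 2-fold; 16.9%), 6 for the LTbR agonist (6.26%), 5 for the combination against untreated (6.84%) and 2 for the combination against the STING agonist (9.43%); and in dendritic and T cells together, with genes counted once per class, 8 (7.25%), 7 (6.04%) and 6 (6.03%) for the 3 agonist groups against untreated (3, 1 and 2 at 2-fold, 1.72%, 1.43% and 1.70%) and 2 (6.02%) and 3 (2.47%) for the combination against the STING and the LTbR agonist (1 and 0 at 2-fold, 1.83% and 0.551%). The STING agonist count of 5 in macrophages and monocytes became 4 with thinning to 1000 UMIs (3.44%) and 6 with TMM factors (4.63%), and that of 5 over all leukocytes became 6 with thinning (18.4%), TMM factors (10.4%) or all deposited cells (10.5%). At 2-fold, the combination against untreated had 1 member over all leukocytes with thinning (2.57%), against 0 as reported, and 0 in macrophages and monocytes with thinning (1.03%) or resolution 0.5 (1.5%), against 1 as reported. The combination against the STING agonist over all leukocytes, with 4 members as reported, had 2 with all deposited cells (6.54%) or with mitochondrial, ribosomal, haemoglobin and immunoglobulin genes left out of the total (8.11%), and 5 with thinning (10.6%), TMM factors (7.26%) or the 1.5-fold limit (21.6%). In neutrophils that comparison had 1, not 0, with TMM factors (4.54%). For dendritic and T cells together the STING agonist count of 3 became 6 with doublets kept (1.85%) or resolution 0.5 (1.94%), 5 with cells named by their own score (2.08%) or a UMI minimum of 50 (3.72%), 4 at resolution 2 (1.67%) and 2 with thinning (1.13%) or free RNA subtracted (1.55%). The LTbR agonist count of 1 became 2 with doublets kept (1.32%), resolution 2 (1.41%), resolution 0.5 (1.67%), thinning (1.04%) or a minimum of 50 (3.05%), and 3 with own scores (1.70%). The combination count of 2 became 4 with doublets kept (1.49%) or resolution 0.5 (1.77%), 5 with own scores (3.03%) or a minimum of 50 (3.16%), 3 with cells under 1000 UMIs left out (1.74%) and 1 with thinning (1.68%). Against the STING agonist the count of 1 became 2 with doublets kept (1.51%), TMM factors (1.85%) or free RNA subtracted (1.84%) and 0 with own scores (1.79%) or thinning (2.02%), and against the LTbR agonist 0 became 1 with resolution 0.5 (0.959%) or a minimum of 50 (1.79%). The causes were not tested. Of 216 shares of cells, 197 left their interval without thinning and 134 with thinning to 1000 UMIs. Leaving out mixed clusters and the T cluster led by Taco1, and the fixed-mix calculation, were chosen after seeing the data. No paired analysis was possible because each group has 1 library, which also leaves no replicate to leave out.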
